A study of Mus musculus with 7 samples.

Results

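Hspbp1, Surf2, Gga1, Slc4a11 and Vgll4 were examined in cloned mouse embryos, 5 genes of 12271 tested and of 24319 in the table. They were chosen from these same values. All 3 libraries of embryos from vitrified oocytes without melatonin lay on one side of all 4 remaining libraries, below them for Hspbp1, Surf2, Gga1 and Slc4a11 and above them for Vgll4. The values that show this pattern therefore describe the choice and carry no test. Such a choice favours wide differences from CROC+K and small spreads within groups. The standard errors given with those differences therefore do not measure their uncertainty.

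The embryos were made by transfer of a somatic nucleus (SCNT), here that of a cumulus cell, into an oocyte whose chromosomes had been removed. Every group was of the B6D2F1 strain with a wild type genotype and had been injected with mRNA of Kdm4a, a histone demethylase gene. CROC+K+M embryos came from oocytes that had been vitrified and warmed, and they received melatonin, an indole hormone, at 10 µM (2 libraries). CROC+K embryos came from vitrified and warmed oocytes with no melatonin named for them (3 libraries), and FOC+K embryos from fresh oocytes (2 libraries). Each library pools 50 to 100 embryos labelled as 2-cell; a vehicle and the blastocyst stage are mentioned only for the series. In such pools fewer cells that carry a transcript and less transcript per cell cannot be told apart.

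The 5 genes act in different parts of the cell. Hspbp1 encodes a co-chaperone that makes Hsp70 release its nucleotide and restrains the ubiquitin ligase encoded by Stub1. Surf2 belongs to the surfeit locus, a tight cluster of housekeeping genes, and its product in human cells is nucleolar and binds the free 5S ribonucleoprotein particle. Gga1 encodes an adaptor that Arf GTPases recruit to the trans-Golgi network, where it loads mannose 6-phosphate receptors into clathrin carriers. Slc4a11 encodes a membrane transporter of the bicarbonate transporter family that is known for its role in the corneal endothelium. Vgll4 encodes a cofactor that binds TEAD transcription factors in competition with Yap1, and the TEAD factor Tead4 is needed to form the trophectoderm of mouse embryos.

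FPKM, the fragments of a gene scaled to its length and to the size of the library, summed to between 552356 and 1017995 per library. The steps between the lowest values implied between 4120000 and 6420000 fragments per library, taking each step as 1 fragment and the values as not rescaled between libraries. All 11 oocyte markers had an FPKM of at least 1 in every library, with sums of 3952 to 4026 in CROC+K+M, 4962 to 6522 in CROC+K and 5936 to 6442 in FOC+K. CROC+K+M replicate 1 stood apart: the 16 trophectoderm markers summed to 26326 there, with 15 of them at 1 or more, against 66.8 to 149.2 in the other 6 libraries. Most of that sum was Fabp3 at 24404, followed by Krt18 at 750 and Krt8 at 300. Among these markers Cldn6 went the other way, with its lowest value of 5.13 in that library. Cdx2, a defining trophectoderm gene, was at 6.97 in that library and is listed at 0 in the others. The 16 cumulus markers summed to between 18.5 and 26.4 in all libraries, and Ptx3 among them is listed at 0 in each. The 7 markers of the 2-cell stage summed to 33.6 to 149.2 in CROC+K+M, 32.7 to 522.03 in CROC+K and 42.3 to 181.4 in FOC+K. CROC+K replicate 1 shared a high level of Rn45s, the ribosomal RNA precursor, with the FOC+K libraries (2114 there, 1183 and 1047 in FOC+K, and 175.4 to 265.7 in the 4 others). Its Kdm4a level of 497 was the lowest of all, and the 4051 and 4949 in CROC+K replicates 2 and 3 were the highest. Kdm4a was at 2797 and 689 in CROC+K+M and at 2014 and 816 in FOC+K. The part of these features in the results was not tested beyond the values without a library given below.

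Hspbp1 had 18.4 and 16.1 FPKM in CROC+K+M, 2.85, 1.12 and 1.37 in CROC+K (replicates 1 to 3), against 11.1 and 6.20 in FOC+K. Its mean was 17.2 ± 1.58 (SD, n = 2) with melatonin, 1.78 ± 0.93 (SD, n = 3) without it and 8.64 ± 3.45 (SD, n = 2) from fresh oocytes. The CROC+K+M mean was 9.69 times the CROC+K mean, and the CROC+K mean was 0.206 times the FOC+K mean. In the values as deposited no groups overlapped, and both CROC+K+M libraries also lay above both FOC+K libraries. With the libraries scaled to equal FPKM sums, CROC+K+M replicate 1 fell below FOC+K replicate 1. On the log2(FPKM + 1) scale the difference was -1.80 ± 0.40 (SE) for vitrified CROC+K against fresh FOC+K and 2.76 ± 0.40 for melatonin against CROC+K. Within the 3 libraries of high Rn45s, CROC+K replicate 1 lay at -1.28 from the FOC+K mean, and within the 4 of low Rn45s the CROC+K+M mean lay 3.02 above CROC+K. The values rest on about 138 to 149 fragments in CROC+K+M, 8 to 20 in CROC+K and 51 to 66 in FOC+K. Both differences, here and for the genes that follow, use the same CROC+K libraries. The choice of the genes also fixes the signs within the high and the low Rn45s libraries. CROC+K replicate 1 is the only CROC+K library of high Rn45s. These splits therefore cannot decide whether the differences hold apart from Rn45s.

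Surf2 had 26.0 and 13.8 FPKM in CROC+K+M, 3.22 and 1.87 in CROC+K replicates 1 and 3, and 9.13 and 7.89 in FOC+K. In CROC+K replicate 2 it is listed at 0, which can be a failed estimate in such a table, so no mean is given. Here too both CROC+K+M libraries lay above both FOC+K libraries, and they also did so with equal FPKM sums. The log2 difference was -2.05 ± 0.62 (SE) for vitrified CROC+K against fresh FOC+K and 3.12 ± 0.62 for melatonin against CROC+K; without CROC+K replicate 2 these were -1.45 and 2.52. Within the high Rn45s libraries CROC+K replicate 1 lay at -1.17 from FOC+K, and within the low ones CROC+K+M lay 3.56 above CROC+K. The value of 3.56 rests on CROC+K replicates 2 and 3 alone, and so in part on the listed 0. About 93 to 142 fragments stand behind the CROC+K+M values, at most 16 behind those of CROC+K, and 40 to 47 behind those of FOC+K. In the GENCODE M21 annotation the gene overlaps Surf1 by 164 bases at its start and Surf4 by 144 bases at its end, both on the opposite strand. Without a stated strand setting, fragments in these stretches cannot be assigned, so the Surf2 level is uncertain.

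Gga1 had 3.41 and 2.65 FPKM in CROC+K+M, 1.68, 1.26 and 1.34 in CROC+K, and 4.21 and 4.33 in FOC+K. The mean was 3.03 ± 0.54 (SD, n = 2) in CROC+K+M, 1.43 ± 0.22 (SD, n = 3) in CROC+K, compared with 4.27 ± 0.09 (SD, n = 2) in FOC+K. The CROC+K+M libraries lay between the other groups without reaching FOC+K. The log2 difference was -1.12 ± 0.32 (SE) for vitrified CROC+K against fresh FOC+K and 0.73 ± 0.32 for melatonin against CROC+K. Within the high Rn45s libraries it was -0.97 and within the low ones 0.80. The values stand on about 49 to 51 fragments in CROC+K+M, 17 to 23 in CROC+K and 50 to 71 in FOC+K.

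Slc4a11 had 6.13 and 9.09 FPKM in CROC+K+M, 4.08, 1.19 and 0.75 in CROC+K, again in replicate order, and 7.00 and 8.37 in FOC+K. The mean was 7.61 ± 2.10 (SD, n = 2) in CROC+K+M, 2.00 ± 1.81 (SD, n = 3) in CROC+K, compared with 7.68 ± 0.97 (SD, n = 2) in FOC+K. CROC+K replicate 1 was far above replicates 2 and 3, and the CROC+K+M and FOC+K libraries interleaved. The log2 difference was -1.69 ± 0.50 (SE) for vitrified CROC+K against fresh FOC+K and 1.66 ± 0.50 for melatonin against CROC+K, with -0.77 within the high Rn45s libraries and 2.12 within the low ones. When the libraries were scaled to equal FPKM sums, CROC+K replicate 1 no longer lay below all others (a gap of -0.19 instead of 0.49), so the pattern of Slc4a11 depends on the scaling. Fragments numbered about 97 to 178 in CROC+K+M, 10 to 59 in CROC+K and 88 to 145 in FOC+K.

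Vgll4 ran the other way, with 0.85 and 0.14 FPKM in CROC+K+M, 4.45, 6.58 and 3.82 in CROC+K, and 1.70 and 0.46 in FOC+K. The mean was 0.49 ± 0.50 (SD, n = 2) in CROC+K+M, 4.95 ± 1.45 (SD, n = 3) in CROC+K, compared with 1.08 ± 0.88 (SD, n = 2) in FOC+K. The CROC+K+M mean was 0.0995 times that of CROC+K, and the CROC+K mean 4.57 times that of FOC+K. All 3 CROC+K libraries were high, and the low values of the other groups overlapped each other. The log2 difference was 1.55 ± 0.44 (SE) for vitrified CROC+K against fresh FOC+K and -2.01 ± 0.44 for melatonin against CROC+K. Within the high Rn45s libraries it was 1.45 and within the low ones -2.06. About 2 to 8 fragments stand behind the values in CROC+K+M, 31 to 58 behind those in CROC+K and 5 to 13 behind those in FOC+K, so the low levels are imprecise.

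**Figure D1:**
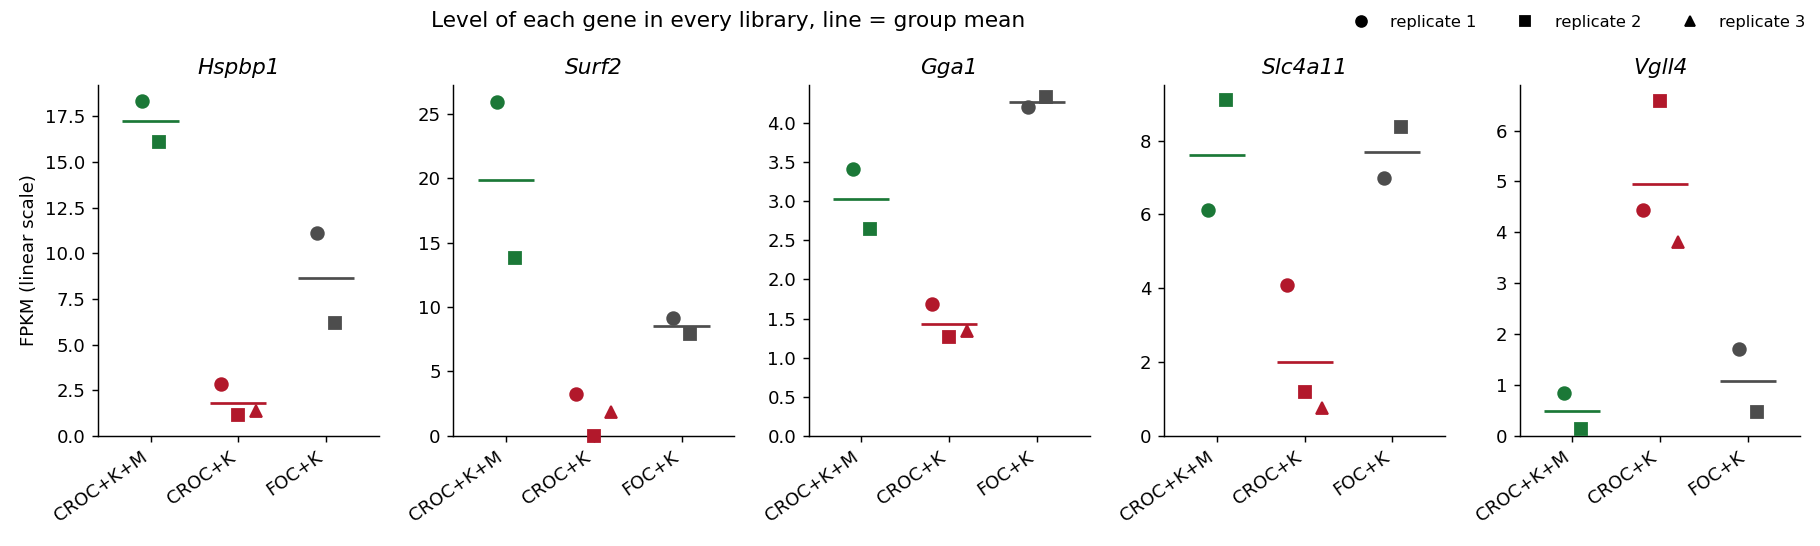
FPKM (linear axis) of the 5 genes in each library of CROC+K+M, CROC+K and FOC+K; marker shapes give the replicate and lines the group means, left out for Surf2 in CROC+K, where 1 library is listed at 0. The CROC+K libraries lie below both other groups in 4 genes and above them in Vgll4, where they sit between 3.82 and 6.58.

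Such a pattern was not rare in the table. Of the 12271 tested genes, 788 (6.42%) had all 3 CROC+K libraries on one side of the other 4, with 388 below (3.16%) and 400 above (3.26%). The genes with the pattern differ in the width of the gap, the distance on the log2(FPKM + 1) scale between the nearest CROC+K library and the nearest other one. Surf2 had the widest gap of the 388 lower genes (1.07), and Vgll4 the widest of the 400 higher ones (0.83). Hspbp1 came 5th among the lower genes (0.90), Slc4a11 31st (0.49) and Gga1 39th (0.44). Median gaps were 0.13 and 0.12 in the lower and higher sets. At the edge of the rule, Zfp276 was just inside the lower set with a gap of 0.00075 and Tspan5 just inside the higher one with 0.0012. Cryga and 1700080O16Rik were just outside, with gaps of 0.

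With equal FPKM sums the gap narrowed to 0.14 in Gga1 and 0.50 in Vgll4, while Hspbp1 (0.99) and Surf2 (1.17) kept theirs. Without a gap for Slc4a11, 4 of the 5 genes then had the pattern. After quantile normalization all 5 did, with gaps from 0.34 in Slc4a11 to 1.14 in Surf2.

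**Figure D2:**
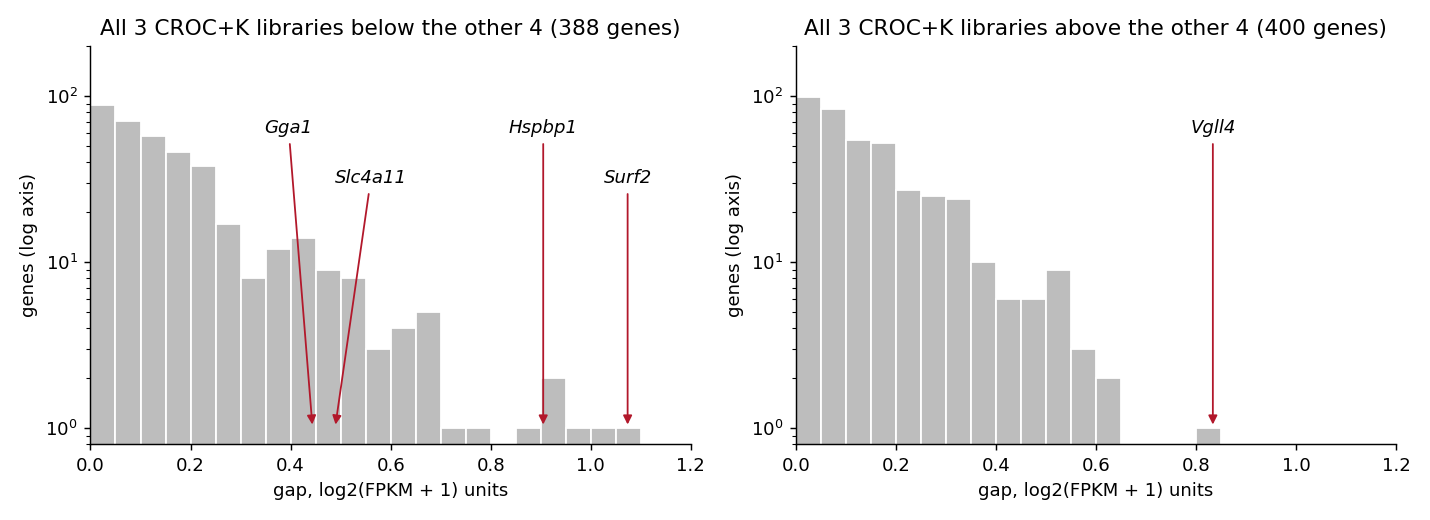
Number of genes (log axis) by the width of the gap in log2(FPKM + 1) units, for the 388 genes with all 3 CROC+K libraries below the other 4 and the 400 with them above. Arrows mark the 5 genes; Surf2 at 1.07 and Vgll4 at 0.83 stand at the far end of their sets.

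Other genes of wide gap in the lower set were Nudt16l1 (1.04), Idh2 (0.96), which encodes the mitochondrial NADP-dependent isocitrate dehydrogenase, and Gstm4 (0.93), a glutathione transferase gene. In all 3 the CROC+K libraries were below 1 FPKM, and CROC+K+M replicate 1 was far above replicate 2, at 27.7 against 1.81 for Idh2. In the higher set Vgll4 was followed by a clone, by Wfdc1 (0.63), by Ogg1 (0.59), the glycosylase gene that removes oxidised guanine from DNA, and by Ggn (0.57), a germ cell gene. Ogg1 was at 0.69 and 0.67 FPKM in CROC+K+M, 3.64, 4.92 and 3.13 in CROC+K, and 1.74 and 1.01 in FOC+K.

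CROC+K replicate 1 was the CROC+K library nearest to the other groups in Hspbp1, Surf2, Gga1 and Slc4a11, and replicate 3 was nearest in Vgll4. Across the table replicate 1 was nearest in 55.4% of the 388 lower and 53.8% of the 400 higher genes. This is the library that shares a high Rn45s level with FOC+K; its part in the gaps was not tested.

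The 4 lower genes followed each other over the 7 libraries, with Pearson correlations of 0.79 to 0.95 on the log2 scale, and Vgll4 ran opposite to each at -0.86 to -0.78. Hspbp1 and Surf2 put the libraries in the same order throughout (Spearman's rho of 1.0). The choice of genes fixes most of these values, and the libraries they share are only 7.

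Genes most like each of the 5 in their course over the 7 libraries were sought among 11137 tested genes other than clones and predicted genes. For Hspbp1 they were Il2rg (Pearson r = 0.98), Olfr310 (0.98) and Zim2 (0.98), for Surf2 Gemin2 (0.98), Ivns1abp (0.97) and Ocm (0.97), and for Gga1 Adpgk (0.98), Cnnm4 (0.97) and Atp11b (0.96). Nup107 (0.99), Lat2 (0.98) and Zfp810 (0.98) were most like Slc4a11, and Ift46 (0.99), Ogg1 (0.98) and Upp1 (0.97) most like Vgll4. Gemin2, a gene of the survival motor neuron complex, was measured at a much higher level than Surf2, with 79.9 and 46.5 FPKM in CROC+K+M, 26.2, 11.7 and 17.8 in CROC+K, and 31.6 and 34.0 in FOC+K. Nup107, a nuclear pore gene, and Zfp810 are the 2 of these 15 that lack the pattern, since CROC+K replicate 1 lay above CROC+K+M replicate 1. The search took the genes closest to genes chosen for the pattern, so it largely fixes these correlations and the shared pattern. A correlation also ignores the size of a change: Adpgk varied only from 4.70 to 5.23 FPKM.

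The choice of the genes does not fix the direction of CROC+K+M against FOC+K. This comparison asks how close embryos with melatonin came to those from fresh oocytes. The choice does place both groups on the same side of CROC+K, so their closeness is partly settled by it. None of the 5 passed, and limma called 0 of the 12271 genes (0.0%), with 793 genes (6.46%) at an unadjusted p under 0.05. Hspbp1 had a log2 change of 0.96 ± 0.44 (SE), a 95% interval of -0.06 to 1.99 and an adjusted p of 0.757 in limma. Surf2 had a change of 1.07 ± 0.68 with an interval of -0.50 to 2.65 (adjusted p = 0.801 in limma). In both genes, both CROC+K+M libraries lay above both FOC+K libraries as deposited, but both intervals include 0. With equal FPKM sums this order held in Surf2 but not in Hspbp1. The share of all tested genes with such an order was not counted, so it is not read as a result.

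Gga1 lay lower with melatonin in both libraries, at -0.39 ± 0.35 (interval -1.21 to 0.43, adjusted p = 0.843 in limma). For Slc4a11 the estimate was -0.03 ± 0.55 (interval -1.30 to 1.25, adjusted p = 0.995 in limma), and for Vgll4 -0.46 ± 0.48 (interval -1.58 to 0.66, adjusted p = 0.873 in limma). The intervals include 0 and reach beyond 1 log2 unit in either direction for Slc4a11, so they do not show that the groups are alike. Without CROC+K+M replicate 1, where trophectoderm transcripts were high, the change was 0.88 for Hspbp1, 0.64 for Surf2, -0.53 for Gga1, 0.22 for Slc4a11 and -0.81 for Vgll4. The remaining library was taken to vary like the other groups in each fit that left 1 library in a group. Without CROC+K+M replicate 2 the change was 1.51 for Surf2, -0.26 for Gga1, -0.28 for Slc4a11 and -0.11 for Vgll4. For FOC+K, leaving out replicate 1 gave -0.01 for Vgll4 and -0.14 for Slc4a11, and leaving out replicate 2 gave 0.59 for Hspbp1, 0.08 for Slc4a11 and -0.90 for Vgll4. Scaling to equal FPKM sums moved all 5 values down, to 0.42 for Hspbp1, 0.52 for Surf2, -0.87 for Gga1, -0.55 for Slc4a11 and -0.73 for Vgll4. That scaling also moved the median of all 12271 genes to -0.44 in this comparison, against 0.04 as deposited. The size of the 5 values thus depends on single libraries and on the scaling. High and low Rn45s follow FOC+K and CROC+K+M in full, so this split and the groups cannot be told apart here.

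**Figure D3:**
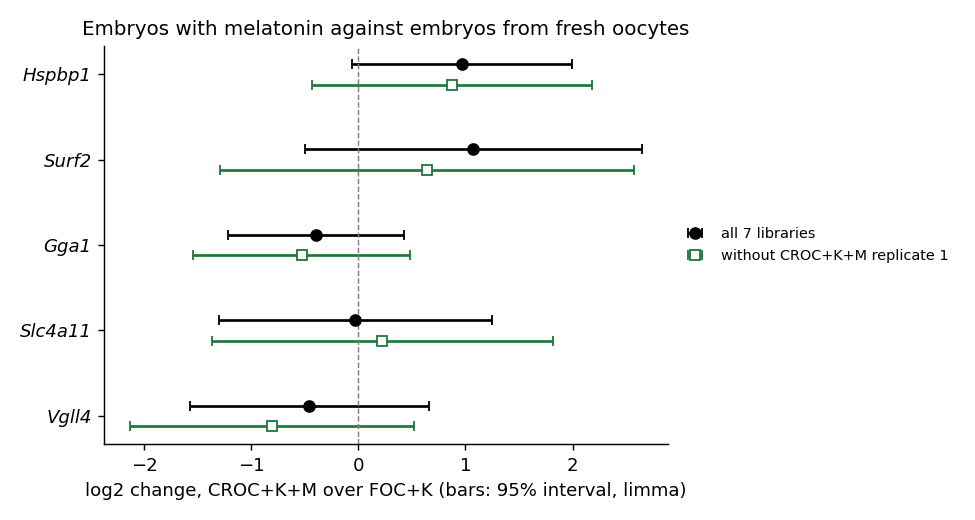
Log2 change of CROC+K+M over FOC+K for the 5 genes with 95% intervals of limma, from all 7 libraries (filled) and without CROC+K+M replicate 1 (open). Every interval includes 0; Hspbp1 comes closest to leaving it, from -0.06 to 1.99.

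Genes that work with the 5 were followed in 6 lists with 115 symbols, of which 96 were tested. None passed in any of the 3 comparisons in limma, where 0 of all 12271 genes were called in each (0.0%). At an unadjusted p under 0.05 there were 1 of the 96 for vitrified CROC+K against fresh FOC+K (2.19% of all tested genes), 5 for melatonin against CROC+K (10.4% of all) and 1 for melatonin against FOC+K (6.46% of all). The pattern by which the 5 genes were chosen was present in 6 of the 96 (6.25%), close to the 6.42% of all genes. All 6 were lower in CROC+K and 0 higher, against 3.16% lower and 3.26% higher among all genes. This difference in direction was not tested.

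In the Hsp70 system, 33 partners of Hspbp1 were tested and none had its pattern. Of these, 18 averaged higher in CROC+K than in fresh-oocyte embryos and 15 averaged lower (median log2 change 0.11, against -0.03 over all genes). With melatonin 19 of 33 exceeded CROC+K (median 0.05, against 0.06 over all genes), and 25 of 33 exceeded FOC+K (median 0.40, against 0.04). Without CROC+K+M replicate 1 these were 9 of 33 (median -0.12, against 0.03) and 17 of 33 (median 0.0015, against 0.02). Sil1, the nucleotide exchange factor of the Hsp70 of the endoplasmic reticulum, is shown with Hspbp1 as the list gene of smallest unadjusted p. It was at 7.98 and 3.23 FPKM in CROC+K+M, 7.64, 11.3 and 12.6 in CROC+K, and 4.08 and 2.85 in FOC+K. Its log2 change was 1.36 ± 0.43 (SE) for vitrified CROC+K against fresh FOC+K, with an adjusted p of 0.9996 in limma, and CROC+K+M replicate 1 overlapped CROC+K. Hspa8, the constitutive Hsp70, varied widely within groups, from 90.0 to 550.4 FPKM in CROC+K+M, 92.9 to 348.1 in CROC+K and 70.9 to 137.2 in FOC+K. Stub1 was at 50.0 and 11.3 in CROC+K+M, 13.2, 10.4 and 12.04 in CROC+K, and 14.5 and 14.3 in FOC+K, high only in CROC+K+M replicate 1.

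The other genes of the surfeit locus did not have the course of Surf2. All 5 averaged higher in CROC+K than in fresh-oocyte embryos (median log2 change 0.42), and 2 of 5 averaged higher with melatonin than without it (median -0.46). Surf1, a cytochrome c oxidase assembly factor gene whose start overlaps that of Surf2, was at 48.2 and 30.6 FPKM in CROC+K+M, 15.8, 29.6 and 31.1 in CROC+K, and 15.7 and 18.9 in FOC+K. Surf4, a cargo receptor gene whose end overlaps that of Surf2, was at 59.7 and 39.9 in CROC+K+M, 68.6, 76.7 and 59.6 in CROC+K, and 65.0 and 67.1 in FOC+K. Surf6, a nucleolar gene, was at 4.79 and 11.5 in CROC+K+M, 8.81, 12.9 and 10.7 in CROC+K, and 9.43 and 6.26 in FOC+K. The largest of these differences was that of Surf1 for CROC+K+M against FOC+K, at 1.11 ± 0.42 (SE, adjusted p = 0.755 in limma).

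Of 11 tested genes around the 5S ribonucleoprotein particle, Rpf2 and Wdr12 had the pattern of Surf2 with narrow gaps (0.12 and 0.04). Rpf2, an assembly factor gene of this particle, was at 103.4 and 126.0 FPKM in CROC+K+M, 70.4, 42.0 and 69.5 in CROC+K, and 124.7 and 76.5 in FOC+K. Its log2 change was -0.72 ± 0.35 (SE) for vitrified CROC+K against fresh FOC+K and 0.94 ± 0.35 for melatonin against CROC+K, with adjusted p = 0.9996 and 0.427 in limma. The list had 4 of 11 genes higher in CROC+K than in FOC+K (median -0.05), 9 of 11 higher with melatonin than without it (median 0.81) and all 11 higher with melatonin than from fresh oocytes (median 0.62). Of all tested genes 54.1% and 52.9% were higher in these last comparisons, with medians of 0.06 and 0.04. Without CROC+K+M replicate 1 all 11 were higher in both (medians 0.74 and 0.48), against 52.3% and 51.3% of all genes. Ribosomal protein genes in it have many processed copies, which makes their levels uncertain.

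Gga1 was the only one of the 3 Gga genes with the pattern. Gga2 was at 6.82 and 2.496 FPKM in CROC+K+M, 2.76, 0.99 and 1.58 in CROC+K, and 0.97 and 2.30 in FOC+K. Its CROC+K libraries overlapped both other groups. Both CROC+K+M libraries lay above both of FOC+K as deposited, but not with equal FPKM sums. Gga3 was at 9.58 and 11.4 in CROC+K+M, 7.35, 11.7 and 15.4 in CROC+K, and 10.96 and 9.72 in FOC+K. In the list of 26 tested trans-Golgi sorting genes, 12 averaged higher in CROC+K than in fresh-oocyte embryos (median -0.07) and 14 averaged higher with melatonin than without it (median 0.14). Without CROC+K+M replicate 1 the last count was 13 (median 0.02). The AP-1 adaptor genes Ap1m2 and Ap1s3 and the receptor gene Igf2r had the pattern, all lower in CROC+K. Ap1m2, a subunit of the epithelial form of AP-1, was at 57.6 and 36.7 in CROC+K+M, 22.5, 11.4 and 10.3 in CROC+K, and 24.1 and 27.8 in FOC+K. Its log2 change was 1.66 ± 0.40 (SE) for melatonin against CROC+K, with an adjusted p of 0.408 in limma. Igf2r, whose product carries mannose 6-phosphate tagged enzymes, was at 1.29 and 0.96 in CROC+K+M, 0.89, 0.34 and 0.21 in CROC+K, and 1.13 and 1.001 in FOC+K. Arf1, from 70.8 to 195.1 in CROC+K+M, 73.7 to 125.2 in CROC+K and 75.3 to 87.5 in FOC+K, overlapped between groups.

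Of 9 other genes of the Slc4 family 4 passed the filter on low values, and none of these 4 had the pattern. Slc4a7, a sodium bicarbonate cotransporter gene, was at 1.78 and 3.89 FPKM in CROC+K+M, 1.11, 1.71 and 2.39 in CROC+K, and 2.44 and 2.62 in FOC+K. Slc4a3 stayed below 0.5 in every library and was not tested. At these low levels its CROC+K libraries (0.49, 0.40 and 0.48) lay above those of CROC+K+M (0.18 and 0.07) and FOC+K (0.11 and 0.25), opposite to Slc4a11. Slc4a2 exceeded 0.5 only in CROC+K+M replicate 1, at 2.57.

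Tead4, the partner of Vgll4, showed the opposite course with all 3 CROC+K libraries below the other 4 and a gap of 0.44. It was at 5.28 and 5.29 FPKM in CROC+K+M, at 2.04 and 1.98 in the first 2 replicates of CROC+K, and at 3.57 and 3.11 in FOC+K. In CROC+K replicate 3 it is listed at 0. The log2 change was -1.06 ± 0.53 (SE) for vitrified CROC+K against fresh FOC+K and 1.59 ± 0.53 for melatonin against CROC+K, with adjusted p = 0.9996 and 0.420 in limma. Without CROC+K replicate 3 these were -0.53 ± 0.33 and 1.06 ± 0.33. Both CROC+K+M libraries had nearly the same Tead4 level, and trophectoderm markers were high only in replicate 1. A link between Tead4 and these markers was not tested. Tead4 was the only 1 of 17 tested TEAD and Hippo pathway genes with the pattern. Yap1, the coactivator with which Vgll4 competes, was at 69.1 and 91.0 in CROC+K+M, 75.4, 93.1 and 81.1 in CROC+K, and 84.4 and 100.7 in FOC+K, with overlapping groups. Tead1 was at 1.94 and 0.92 in CROC+K+M, 0.59, 1.30 and 0.90 in CROC+K, and 0.70 and 0.72 in FOC+K. In the list 9 of 17 genes averaged higher in CROC+K than in fresh-oocyte embryos (median 0.15) and 10 of 17 averaged higher with melatonin than without it (median 0.15). Without CROC+K+M replicate 1 the last count was 8 (median -0.06).

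**Figure D4:**
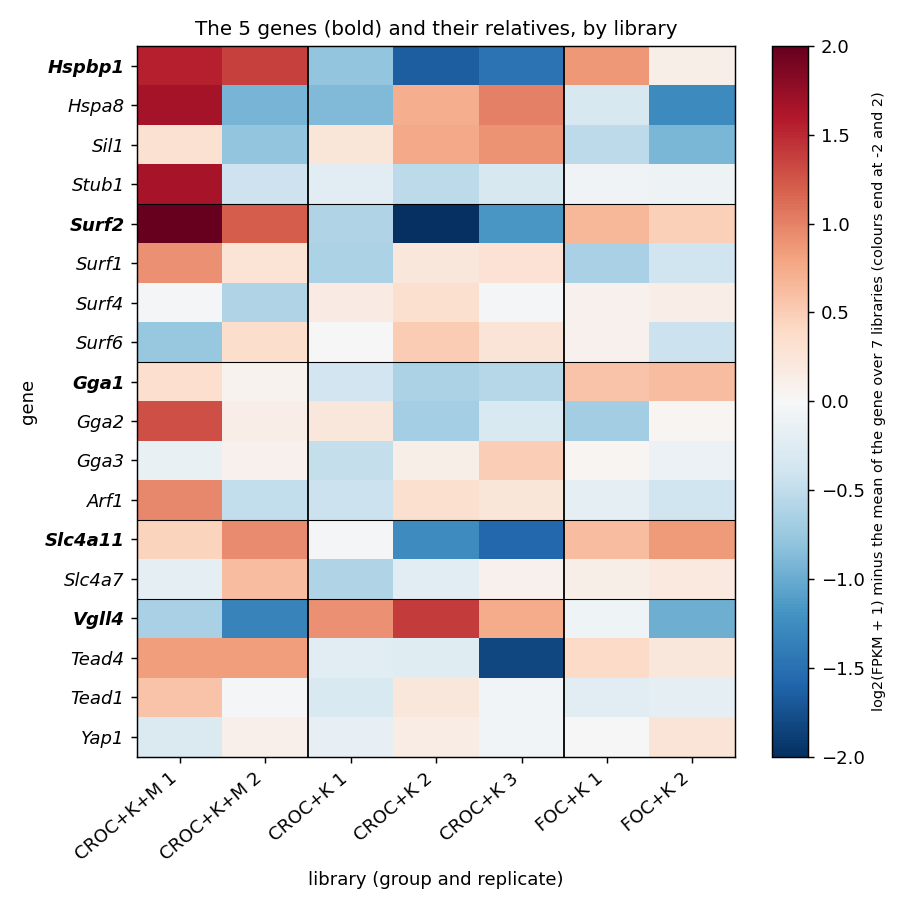
Deviation of log2(FPKM + 1) from the mean of each gene over the 7 libraries, for the 5 genes (bold) and 13 tested relatives; columns are libraries of CROC+K+M, CROC+K and FOC+K. Tead4 is blue in all 3 CROC+K columns, where Vgll4 is red; Hspa8 and Stub1 have their highest value in CROC+K+M replicate 1.

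Genes next to the 5 on the chromosome were examined as well. In GENCODE M21 the protein-coding genes that overlap or adjoin them number 12, of which 10 were tested. Only Lgals2, next to Gga1, had the pattern, with a gap of 0.04 and in the direction opposite to Gga1. Itpa, next to Slc4a11 and transcribed from the other strand, was at 26.5 and 14.6 FPKM in CROC+K+M, 10.9, 5.33 and 1.59 in CROC+K, and 11.8 and 9.11 in FOC+K. Its CROC+K replicates 2 and 3 were the lowest libraries and replicate 1 lay among those of FOC+K. In Slc4a11 too replicate 1 was the highest and replicate 3 the lowest of CROC+K. Atg7, an autophagy gene that ends 13 bases from the end of Vgll4 on the other strand, was at 6.61 and 2.34 in CROC+K+M, 2.39, 0.59 and 1.83 in CROC+K, and 1.95 and 1.61 in FOC+K. It did not share the high CROC+K values of Vgll4.

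Since the genes were chosen for a shared course, the promoter sequences before their starts are set side by side, with the RefSeq start and build GRCm38.p6; the levels above were computed by the authors on mm9, per the submitters' processing notes. RefSeq promoter entries were matched for 4 of the 5, all but Slc4a11. That of Surf2 lies within Surf1 and is not shown, and that of Hspbp1 is shown up to the first exon in GENCODE M21, 87 bases before the RefSeq start. Capitals mark matches, on either strand, to the motifs searched.
Gga1, chr15:78876940-78877189, plus strand: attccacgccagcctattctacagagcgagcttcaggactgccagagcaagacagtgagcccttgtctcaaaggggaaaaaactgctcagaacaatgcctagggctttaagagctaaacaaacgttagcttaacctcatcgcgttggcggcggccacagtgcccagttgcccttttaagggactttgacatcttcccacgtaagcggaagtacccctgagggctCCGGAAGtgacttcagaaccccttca
Hspbp1, chr7:4685069-4685231, minus strand: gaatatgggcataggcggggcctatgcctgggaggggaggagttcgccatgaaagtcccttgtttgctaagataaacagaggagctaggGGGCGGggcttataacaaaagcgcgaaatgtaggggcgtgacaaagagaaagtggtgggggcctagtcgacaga
Vgll4, chr6:114969204-114969453, minus strand: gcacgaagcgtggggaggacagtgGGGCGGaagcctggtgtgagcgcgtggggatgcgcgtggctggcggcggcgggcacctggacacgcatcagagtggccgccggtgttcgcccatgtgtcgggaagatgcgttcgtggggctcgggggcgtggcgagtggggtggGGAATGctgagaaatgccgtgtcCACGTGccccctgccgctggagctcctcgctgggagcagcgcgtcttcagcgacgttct

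No motif searched was common to the 4 promoters. The 250 bases before each RefSeq start were searched for 9 motifs on both strands. These were the TATA box with the letters TATAAA, the CCAAT box, the GC box with GGGCGG, a motif of ETS factors with CCGGAAG, and the cyclic AMP response element with TGACGTCA. The others were the core of the antioxidant response element with TGACNNNGC, that of the heat shock element with GAANNTTC, the E-box with CACGTG, and a motif of TEAD factors with GGAATG. The GC box was in Hspbp1 and Vgll4 and in 32.7% of all 32851 promoters. The ETS motif was in Gga1 and Surf2 and in 6.91% of all. The E-box was in Surf2 and Vgll4 and in 6.02% of all, and the TEAD motif was in Vgll4 and in 12.6% of all. The other 5 motifs were in none of the 4 windows. These are matches of letters and not shown to be bound.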

How the data were processed

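RNA of pooled embryos was measured in 7 libraries. The authors' deposited table holds FPKM for 24319 gene symbols. STAR 2.5.2b, Cufflinks 2.2.1, Cuffnorm, R 3.3.2 and the mouse build mm9 are named, per the submitters' processing notes. Not given in the sources used here are the annotation, the strand setting and the scaling between libraries. Groups and replicate numbers come from the sample titles.

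Values were used as deposited, as log2(FPKM + 1). Genes with FPKM of at least 1 in 2 or more libraries were tested, after removing 1302 small RNA and ribosomal RNA rows, leaving 12271. limma 3.58.1 in R 4.3.3 was fitted once to all 7 libraries with an intensity trend and 1 term, the group (residual degrees of freedom 4), with two-sided tests and Benjamini-Hochberg adjustment over all tested genes at 0.05. Errors are limma's standard errors (SE) and 95% intervals. The fit was checked on simulated libraries. Python 3.11.15 did the rest.

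The 5 genes and the gene lists were chosen with earlier results of these data known. Named beyond them are 3 relatives per gene, up to 2 list members per comparison with the smallest unadjusted p, the 3 genes most like each gene, and the 5 genes of widest gap each way; clone names and list members on which no result turns were left out. Nothing in the labels says that libraries of 1 group came from separate batches of oocytes, so p-values measure the spread between these pools.

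Approximate fragments per value were derived from the smallest steps of long genes with a single transcript in GENCODE M21, after taking 150 bases off each length, and the coding transcript of each gene. Alternatives were a pseudocount of 0.1, equal FPKM sums, quantile normalization, no filter on low values, the replicate number as a block, and each library left out in turn.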

Additional observations from a re-analysis of the deposited data

How the results depend on the processing

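In limma, 0 genes passed in each comparison under a pseudocount of 0.1, equal FPKM sums, quantile normalization, no filter on low values and the replicate block. Leaving out 1 library gave between 0 and 658 calls for melatonin against CROC+K, between 0 and 546 for melatonin against FOC+K, and 0 for vitrified against fresh. All those calls came without CROC+K+M replicate 2, where replicate 1 alone, the library with trophectoderm transcripts, stands for its group. None of the 5 genes passed for CROC+K+M against FOC+K under any of these settings (adjusted p of 0.411 to 1.0). The choice largely fixes the direction of their differences in the comparisons that chose them. Under other settings 13 of these differences moved by more than the spread between replicates while 97 did not. The 97 include fits without a library of the group not compared, which cannot move the difference. The moves came with the pseudocount of 0.1, in all genes but Slc4a11, and otherwise only in Gga1. With that pseudocount the Vgll4 difference for melatonin against CROC+K was -3.38 instead of -2.01. The sign of Slc4a11 in CROC+K+M against FOC+K changed without CROC+K+M replicate 1 (0.22) and without FOC+K replicate 2 (0.08), over a range of -0.28 to 0.22 with 1 library left out, and it was -0.55 with equal FPKM sums. Equal sums also gave 0.42 for Hspbp1, 0.52 for Surf2, -0.87 for Gga1 and -0.73 for Vgll4 in that comparison. With 1 library left out the pattern held in 1165 to 3324 genes instead of 788, since fewer libraries are easier to separate. The highest of these counts came without CROC+K replicate 1. With all 7 libraries the pattern held in 572 genes under equal FPKM sums and in 750 under quantile normalization. Without the filter on low values it held in 992 of 17191 genes.

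With the replicate block the log2 change of CROC+K+M against FOC+K was 0.96 in Hspbp1 and 1.07 in Surf2 (adjusted p = 0.914 in limma for both), values that the block cannot move here. Genes at an unadjusted p under 0.05 numbered 96, 707 and 543 with the block for vitrified against fresh oocytes, melatonin against CROC+K and melatonin against FOC+K, instead of 269, 1281 and 793. Deviations of same-numbered libraries from their group means correlated at -0.46 to 0.03. In groups of 2 libraries these deviations mirror each other, so the values are not independent. They cannot decide whether same-numbered libraries shared a batch, which the labels do not state. Low fragment numbers limit the lower values, above all those of Vgll4 outside CROC+K and of Hspbp1 and Surf2 in CROC+K. Counts of list genes without CROC+K+M replicate 1 and Tead4 without CROC+K replicate 3 were chosen after seeing the data.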
